A study of Mus musculus with 6 samples.

Results

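The 10 genes described here hold heterochromatin and retroelements silent. They were followed in sorted nephron progenitors of embryonic mouse kidneys in which Dnmt1, the maintenance DNA methyltransferase gene, was either deleted or heterozygous. They were picked by name, with no measured value in the rule: Trim28, Setdb1, Zfp57, Zfp809, Hells, Atrx, Daxx, Cbx1, Cbx3 and Cbx5. They were 10 of the 26567 genes that could be paired with transcripts of the deposited tables, and all 10 were among the 16989 genes with enough reads to test. None was called changed between genotypes by edgeR's quasi-likelihood test. Zfp57 and Zfp809, which encode DNA-binding zinc finger proteins, had slightly higher normalised counts in every Dnmt1-deleted library than in any heterozygous one. Setdb1 and Cbx5 had lower counts in the same sense. Of all genes tested, 14.8% stood higher and 14.2% lower without overlap. In abundances scaled by transcript length, where the median of all genes was lower in Dnmt1-deleted libraries, the groups of Zfp57 and Zfp809 overlapped. Whether Zfp57 and Zfp809 passed the threshold depended on the test.

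RNA came from cap mesenchyme, the cells that surround the ureteric tips and hold the nephron progenitors, sorted from C57BL/6 kidneys on embryonic day 18.5. There were 3 libraries labelled Dnmt1 KO (genotype Dnmt1 -/-) and 3 labelled Dnmt1 HET (genotype Dnmt1 +/-). Libraries were prepared from 50 ng of RNA by a protocol for very small inputs, and the sequencer was a HiSeq2000. The question set by the design was what loss of the second Dnmt1 allele did to these cells. In both groups the deletion was conditional and driven by Six2-Cre, which is active in cells that express the progenitor factor Six2 and in their descendants, so cells outside that lineage would keep their alleles. The HET libraries also carried Six2-Cre and 1 deleted allele, and no library with both alleles intact was analysed here. The labels do not say whether the 3 libraries of a group came from separate embryos. By Y-linked transcripts each group held both male and female libraries, so its libraries did not all share 1 source, but p-values still measure only the spread between these samples, part of which may be technical.

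Much of the mouse genome derives from retroelements, and their transcription is held down by DNA methylation and by methylation of lysine 9 on histone H3. KRAB zinc finger proteins bind particular DNA sequences and recruit TRIM28, also known as KAP1, which in turn brings the lysine 9 methyltransferase SETDB1, and the resulting mark is bound by the HP1 proteins encoded by Cbx1, Cbx3 and Cbx5. HELLS, also known as LSH, is a chromatin remodeller needed for normal DNA methylation of repeats, and ATRX with DAXX deposits the histone variant H3.3 in silent repeats and telomeres. In the kidney TRIM28 is known from humans as a gene of Wilms tumour predisposition.

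CpG sites are the substrate of DNMT1, so the annotated promoters of the 10 genes were read for them. RefSeq promoter windows of 300 bases, from 250 before to 50 after an annotated start on GRCm38.p6, were given for 10 of 10 genes, 17 windows in all. The 4 windows printed here, 5′ to 3′ on the strand of the gene with every CG in capitals, are from Zfp57 and Zfp809, the 2 of the 10 genes with the highest log2 fold changes in KO relative to HET libraries, and of Hells, which had among the most CpG sites and a fold change near 0. The Zfp57 windows lie at chr17:37003416-37003715 and chr17:37002275-37002574, that of Zfp809 at chr9:22225453-22225752 and that of Hells at chr19:38930740-38931039, all on the plus strand.
Zfp57, window at 37003416: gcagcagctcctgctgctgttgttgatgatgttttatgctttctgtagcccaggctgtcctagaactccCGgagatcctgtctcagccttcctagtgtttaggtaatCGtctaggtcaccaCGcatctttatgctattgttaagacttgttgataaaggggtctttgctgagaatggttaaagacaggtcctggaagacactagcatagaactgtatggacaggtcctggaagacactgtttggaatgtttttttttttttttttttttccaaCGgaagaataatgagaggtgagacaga
Zfp57, window at 37002275: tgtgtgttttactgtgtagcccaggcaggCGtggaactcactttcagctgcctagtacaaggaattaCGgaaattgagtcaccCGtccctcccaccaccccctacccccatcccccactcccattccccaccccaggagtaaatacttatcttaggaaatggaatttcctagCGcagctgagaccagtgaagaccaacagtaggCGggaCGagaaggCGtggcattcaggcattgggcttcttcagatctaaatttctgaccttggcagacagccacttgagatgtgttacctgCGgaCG
Zfp809, window at 22225453: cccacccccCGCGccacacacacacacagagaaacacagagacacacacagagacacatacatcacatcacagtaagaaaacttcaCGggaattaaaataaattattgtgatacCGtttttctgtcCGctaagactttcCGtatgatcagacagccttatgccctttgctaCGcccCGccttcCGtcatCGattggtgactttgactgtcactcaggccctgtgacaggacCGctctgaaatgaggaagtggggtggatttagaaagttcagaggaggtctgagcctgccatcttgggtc
Hells, window at 38930740: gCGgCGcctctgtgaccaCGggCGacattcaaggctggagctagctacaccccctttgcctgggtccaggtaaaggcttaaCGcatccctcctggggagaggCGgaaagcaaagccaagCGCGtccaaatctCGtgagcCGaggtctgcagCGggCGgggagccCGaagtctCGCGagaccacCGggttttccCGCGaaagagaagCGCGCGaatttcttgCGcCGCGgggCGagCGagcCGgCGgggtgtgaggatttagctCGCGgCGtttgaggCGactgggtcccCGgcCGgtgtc

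The motif searched was CG, which reads the same on both strands, and 94.572% of all 32851 promoter windows held at least 1. The 3 Zfp57 windows held 6, 9 and 4 CpG sites, against a median of 7 over all windows with quartiles at 3 and 20. The window with 4 sites, the first printed, is the one where Zfp57-004 starts, a transcript that carried 58.8% of the gene's counts in KO libraries and 59.8% in HET libraries. The window with 9 sites, the second printed, lies at the starts of transcripts with 29.8% of the counts in KO libraries and 26.6% in HET libraries. The Zfp809 windows held 11 sites each, that of Atrx 11, and that of Setdb1 15. Cbx1 had 22 and Trim28 23. Hells had 34, Cbx3 had 34 and 32, and Daxx had 33, 32 and 32. Cbx5 had 29 at the start of the transcript that carried 86.7% of its counts in KO libraries and 89.4% in HET libraries, and 8 at a second, downstream start. The printed Zfp57 and Zfp809 windows hold fewer capitals than that of Hells. They were picked by fold change, and Hells for its many sites and a fold change near 0, so this contrast is no test of a link. The only measured transcript of Zfp809 starts outside both of its windows. A link between CpG content and change was not tested, and methylation itself was not measured in these libraries.

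**Figure D1:**
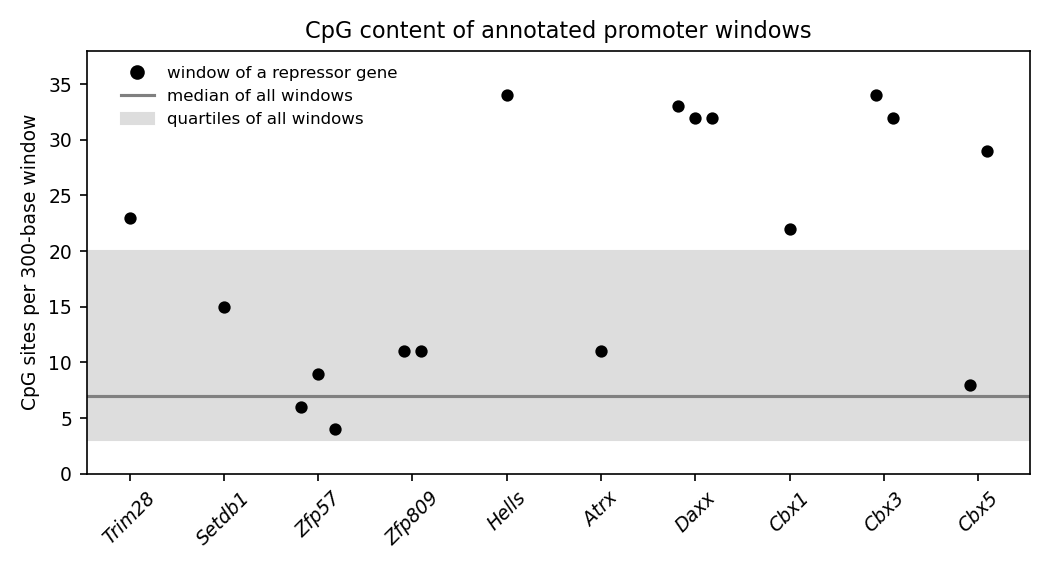
CpG sites (vertical axis) in each RefSeq promoter window of 300 bases of the 10 genes, with the median (grey line, 7) and the quartiles (grey band, 3 to 20) of all 32851 windows. The 3 windows of Zfp57 lie between 4 and 9 sites, and those of Hells, Daxx and Cbx3 lie at 32 or above.

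The libraries held 46741667 to 61585484 kallisto estimated counts each. Levels are given as CPM, counts scaled to a common TMM-normalised library size, in which 3 counts were worth 0.051 to 0.0662 CPM; that floor is one of counting error alone. Dnmt1 itself stood at 20.9, 18.6 and 14.9 CPM in KO replicates 1, 2 and 3, against 40.0, 52.4 and 51.7 CPM in HET replicates 1, 2 and 3, and fell by 1.41 ± 0.15 on the log2 scale (SE, 3 libraries a group; edgeR adjusted p = 0.000264). The KO libraries thus kept 0.38-fold the HET level of Dnmt1 RNA, and the source of this RNA was not tested. All 12 nephron progenitor markers were detected in every library, with summed levels of 1439 to 1742 CPM in KO and 2054 to 2126 CPM in HET libraries, and 3 of the 12 fell. KO replicate 1 stood apart in markers of neighbouring cells: the 8 endothelial markers summed to 182.8 CPM there, to 73.7 and 36.5 CPM in KO replicates 2 and 3, and to 24.03 to 28.7 CPM in HET libraries. The 8 stromal markers summed to 831.2 CPM in KO replicate 1, to 402.4 and 330.7 CPM in KO replicates 2 and 3, and to 253.6 to 325.9 CPM in HET libraries, and none of either list was at 0 in any library. The 8 ureteric epithelium markers summed to 119.2, 71.9 and 37.8 CPM in KO replicates 1, 2 and 3, and to 28.1 to 45.3 CPM in HET libraries. Zfp57 and Zfp809 are accordingly given with and without KO replicate 1. In bulk RNA, fewer cells of a type and less RNA per cell cannot be told apart.

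Across all genes, 4.92% were called higher and 1.92% lower in KO libraries at an edgeR adjusted p under 0.05 (836 and 327 of 16989). Of the 10 repressors 0 were called in either direction, where 6.85% of all genes were called. At an unadjusted p under 0.05 there were 2 higher and 0 lower, where 12.4% and 9.61% of all genes were higher and lower. DESeq2 called 2 of the 10 higher, Zfp57 and Zfp809, where it called 7.02% of all genes higher and 3.06% lower. In CPM the KO and HET libraries did not overlap for 4 of the 10, Zfp57 and Zfp809 with higher KO levels and Setdb1 and Cbx5 with lower ones. Without overlap in CPM, 14.8% of all genes stood higher and 14.2% lower in KO libraries. Which of the 10 did not overlap differed in TPM, as given below. The median log2 fold change of the 10 genes was 0.0044, beside -0.0028 over all genes tested. Their median absolute log2 fold change was 0.12, beside 0.21 over all genes and 0.14 over the 8120 genes at or above the mean CPM of the lowest of the 10, of which 6.37% were called. The 95% intervals allow a level at most 1.57-fold higher, for Zfp809, or 1.34-fold lower, for Atrx.

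**Figure D2:**
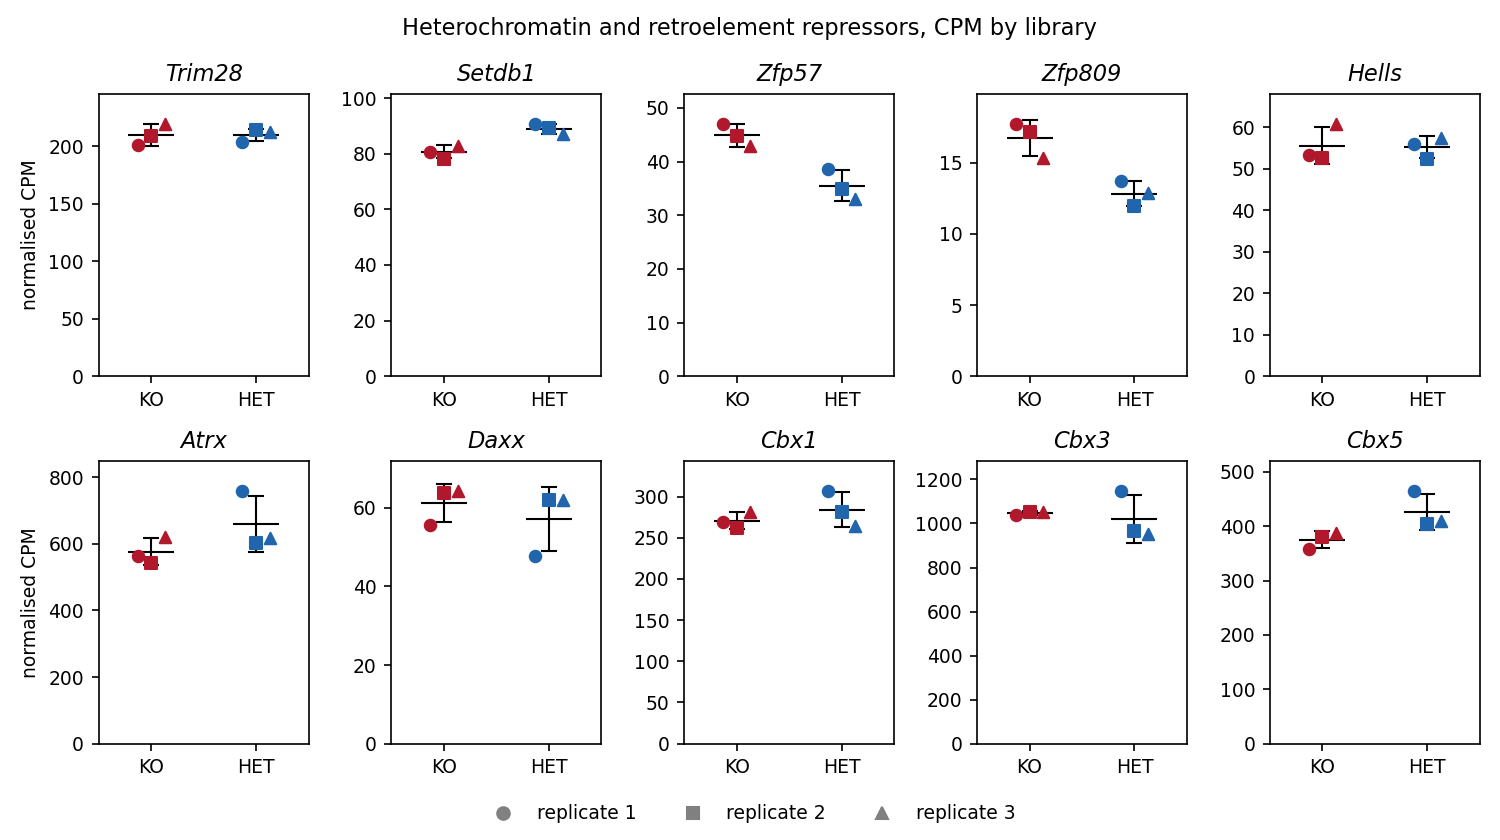
Normalised CPM (vertical axes, each starting at 0) of the 10 repressors in the 3 KO libraries (red, left) and the 3 HET libraries (blue, right), with the mean and SD as black lines and symbols for the replicate number. The KO points of Zfp57 and Zfp809 all lie above the HET points, those of Setdb1 and Cbx5 all lie below them, and the groups of the other 6 genes overlap.

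Zfp57 (ENSMUSG00000036036.9, chr17:37138108-37147580 on NCBIM37, plus strand) encodes a KRAB zinc finger protein that binds methylated imprinting control regions and protects their methylation after fertilisation. It stood at 47.0, 44.7 and 42.9 CPM in KO replicates 1, 2 and 3, against 38.7, 34.8 and 32.99 CPM in HET replicates 1, 2 and 3. The lowest KO library was thus above the highest HET library. The log2 fold change was 0.34 ± 0.09 (SE), with a 95% interval of 0.13 to 0.55 and an edgeR adjusted p of 0.0624, just short of the threshold. DESeq2 gave 0.35 with an adjusted p of 0.0149. Without HET replicate 1, the highest of its group, edgeR gave 0.40 with an adjusted p of 0.0336, and without KO replicate 1, the library richest in endothelial and stromal markers, 0.31 with an adjusted p of 0.146. The part of those markers in the Zfp57 level was not tested beyond that. On log2(TPM + 1), where TPM is the authors' length-scaled abundance, limma gave a difference of 0.21 with an adjusted p of 0.229. The median of all genes on that scale was -0.13, and relative to it Zfp57 was at 0.34.

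Both leading transcripts of Zfp57 had higher mean levels in KO libraries. Zfp57-004 averaged 25.03 ± 2.4 CPM in KO and 19.3 ± 3.4 CPM in HET libraries (SD, n = 3 each). Zfp57-002, which starts at the upstream window with 9 CpG sites, averaged 11.95 ± 1.9 CPM in KO and 8.0 ± 2.3 CPM in HET libraries (SD, n = 3 each). The groups overlapped for each of these transcripts, and their edgeR adjusted p-values were 0.351 and 0.349 over the 50137 transcripts tested. The share of the gene's counts on Zfp57-004 was 58.8 ± 4.2% in KO and 59.8 ± 8.4% in HET libraries, a difference smaller than the spread within either group.

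Zfp809 (ENSMUSG00000057982.6, chr9:22030274-22047641 on NCBIM37, plus strand) encodes a KRAB zinc finger protein that recognises the primer binding site of murine leukaemia virus and related endogenous retroviruses. It was at 17.7, 17.1 and 15.3 CPM in KO replicates 1, 2 and 3, against 13.7, 11.9 and 12.9 CPM in HET replicates 1, 2 and 3. As with Zfp57, every KO library was above every HET library. The log2 fold change was 0.38 ± 0.12 (SE), with a 95% interval of 0.11 to 0.66 and an edgeR adjusted p of 0.1. DESeq2 gave 0.39 with an adjusted p of 0.0451, and without KO replicate 1 edgeR gave 0.35 with an adjusted p of 0.207. A single transcript, Zfp809-202, carried all of its counts, and it starts outside both RefSeq windows.

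The corepressor gene Trim28 (ENSMUSG00000005566.7, chr7:13609501-13616384 on NCBIM37, plus strand), whose product links the zinc finger proteins to histone methylation, had nearly equal mean CPM in both groups. It stood at 200.6, 208.4 and 219.3 CPM in KO replicates 1, 2 and 3, against 203.3, 213.5 and 211.8 CPM in HET replicates 1, 2 and 3. The groups overlapped, and the log2 fold change was -0.0008 ± 0.0735 (SE) with a 95% interval of -0.16 to 0.16 (edgeR adjusted p = 0.997). On log2(TPM + 1) Trim28 differed by -0.22, beside a median of -0.13 over all genes, and its TPM did not overlap between groups. A large part of its counts fell on 8 transcripts annotated with a retained intron. That share was 28.5%, 28.2% and 29.3% in KO replicates 1, 2 and 3, against 33.3%, 29.7% and 31.1% in HET replicates 1, 2 and 3. The KO shares all lay below the HET shares, by less than the range within the HET group, and no transcript of Trim28 was called.

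The methyltransferase gene Setdb1 (ENSMUSG00000015697.8, chr3:95127447-95161124 on NCBIM37, minus strand) had 80.7, 78.3 and 82.9 CPM in KO replicates 1, 2 and 3, against 90.8, 89.2 and 87.2 CPM in HET replicates 1, 2 and 3. Every KO library was below every HET library, within a narrow span. The log2 fold change was -0.14 ± 0.07 (SE), with a 95% interval of -0.31 to 0.02 and an edgeR adjusted p of 0.288. Its main coding transcript, Setdb1-001, stood the other way, with 59.3, 58.8 and 59.7 CPM in KO replicates 1, 2 and 3, against 58.3, 53.7 and 52.5 CPM in HET replicates 1, 2 and 3. That transcript held 77.5 ± 0.4% of the gene's counts in KO and 67.9 ± 3.5% in HET libraries (SD, n = 3 each), and the groups of shares did not overlap. The edgeR test of the transcript itself gave a log2 difference of 0.11 with an adjusted p of 0.58. The remaining counts were split over similar models: Setdb1-003 had 0.01, 6.56 and 91.4 estimated counts in KO replicates 1, 2 and 3, against 0.02, 368.8 and 417.6 in HET replicates 1, 2 and 3, so this split was uneven within groups too. Exons of Setdb1 overlap those of Lass2 on the opposite strand, and no source used here states whether the libraries kept strand, so reads of these neighbours cannot be told apart there.

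The 3 HP1 genes encode proteins that bind methylated lysine 9 of histone H3 through a chromodomain. Cbx5, which encodes HP1α (ENSMUSG00000009575.8, chr15:103021975-103070247 on NCBIM37, minus strand), had 358.9, 379.6 and 388.1 CPM in KO replicates 1, 2 and 3, against 464.2, 404.6 and 408.8 CPM in HET replicates 1, 2 and 3. The groups did not overlap, though HET replicate 1 stood well above the other HET libraries. The log2 fold change was -0.18 ± 0.08 (SE), with a 95% interval of -0.37 to 0.0037 and an edgeR adjusted p of 0.236, and without HET replicate 1 it was -0.12 with an adjusted p of 0.435. With transcript-length offsets it was -0.06 with an edgeR adjusted p of 0.663.

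Cbx1, which encodes HP1β (ENSMUSG00000018666.7, chr11:96650441-96669954 on NCBIM37, plus strand), had 269.5, 261.4 and 281.3 CPM in KO replicates 1, 2 and 3, against 306.4, 280.7 and 264.5 CPM in HET replicates 1, 2 and 3. The groups overlapped, with a log2 fold change of -0.07 ± 0.08 (SE; edgeR adjusted p = 0.654). Its counts lay mostly on Cbx1-003, a model annotated as a target of nonsense-mediated decay, with 70.3 ± 0.7% in KO and 70.0 ± 3.5% in HET libraries (SD, n = 3 each). Cbx3, which encodes HP1γ (ENSMUSG00000029836.9, chr6:51420359-51433703 on NCBIM37, plus strand), had 1039, 1053 and 1052 CPM in KO replicates 1, 2 and 3, against 1146, 964.8 and 951.2 CPM in HET replicates 1, 2 and 3. The KO libraries lay inside the HET range, and the log2 fold change was 0.04 ± 0.09 (SE; edgeR adjusted p = 0.839). Of the 31-mers of Cbx3, 42.2% also occur in transcripts of 11 other genes, so its count is less certain than those of the other 9 genes, for which the share was at most 1.42%. The 5 genes that share the most 31-mers with Cbx3 had between 0 and 4.61 estimated counts in any library.

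Per length, Cbx3 made up most of the HP1 messages. It accounted for 74.4 ± 0.6% of the summed TPM of the 3 genes in KO and 73.1 ± 1.5% in HET libraries (SD, n = 3 each). Cbx1 made up 16.1 ± 0.5% in KO and 16.8 ± 0.7% in HET libraries. Cbx5 made up 9.5 ± 0.4% in KO and 10.1 ± 0.9% in HET libraries. These shares overlapped between genotypes for each of the 3 genes.

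Atrx (ENSMUSG00000031229.9, X:102992954-103124736 on NCBIM37, minus strand) encodes the remodeller of the H3.3 chaperone complex. It had 564.4, 542.2 and 621.7 CPM in KO replicates 1, 2 and 3, against 757.6, 603.3 and 617.2 CPM in HET replicates 1, 2 and 3. The groups overlapped and HET replicate 1 was the highest. The log2 fold change was -0.19 ± 0.10 (SE), with a 95% interval of -0.43 to 0.04 and an edgeR adjusted p of 0.307, and without HET replicate 1 it was -0.08 with an adjusted p of 0.64. The gene is X-linked, and by their Y-linked transcripts KO replicate 2 and HET replicates 1 and 3 were male. With sex as a covariate the log2 fold change was -0.18 with an edgeR adjusted p of 0.481.

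A short coding model of Atrx, Atrx-013, had 0 estimated counts in all 3 KO libraries, against 18.1, 36.2 and 67.5 in HET replicates 1, 2 and 3. The HET mean was 13-fold a floor of 3 counts in each KO library, or 7.64-fold without HET replicate 3, where the model was highest. That floor covers counting error only, while counts of single models are kallisto's division of reads among models of a gene. Such a division also put Setdb1-003 at 0.02 estimated counts in HET replicate 1, against 368.8 in HET replicate 2. The folds of Atrx-013 are thus not lower bounds. The edgeR adjusted p was 0.0545 over all transcripts, the smallest of the 65 transcripts of the 10 genes that were tested, and 0.0299 when no transcript was filtered out. It is a minor model, at or under 1.35 CPM in every HET library, while Atrx-001 held 42.0 ± 1.4% of the gene's counts in KO and 41.2 ± 0.5% in HET libraries (SD, n = 3 each). Of those 65 transcripts 0 were called by edgeR with the filter on and 8 had an unadjusted p under 0.05, where 13.4% of all transcripts did. With adjustment, 1.59% of all transcripts were called higher and 0.199% lower.

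Daxx (ENSMUSG00000002307.9, chr17:34046359-34052534 on NCBIM37, plus strand), the chaperone partner of Atrx, had 55.6, 63.8 and 64.2 CPM in KO replicates 1, 2 and 3, against 47.7, 62.0 and 61.9 CPM in HET replicates 1, 2 and 3. The groups overlapped and replicate 1 was the lowest of each. The log2 fold change was 0.10 ± 0.12 (SE; edgeR adjusted p = 0.658), and without HET replicate 1 it was -0.0194. Hells (ENSMUSG00000025001.5, chr19:39005405-39045541 on NCBIM37, plus strand), the remodeller that DNA methylation of repeats needs, had 53.3, 52.7 and 60.9 CPM in KO replicates 1, 2 and 3, against 56.1, 52.4 and 57.3 CPM in HET replicates 1, 2 and 3. Its groups overlapped almost fully, with a log2 fold change of 0.0095 ± 0.0897 (SE; edgeR adjusted p = 0.964). One library led each group across the 10 genes: KO replicate 3 had the highest KO level for 7 of them, and HET replicate 1 the highest HET level for 7.

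**Figure D3:**
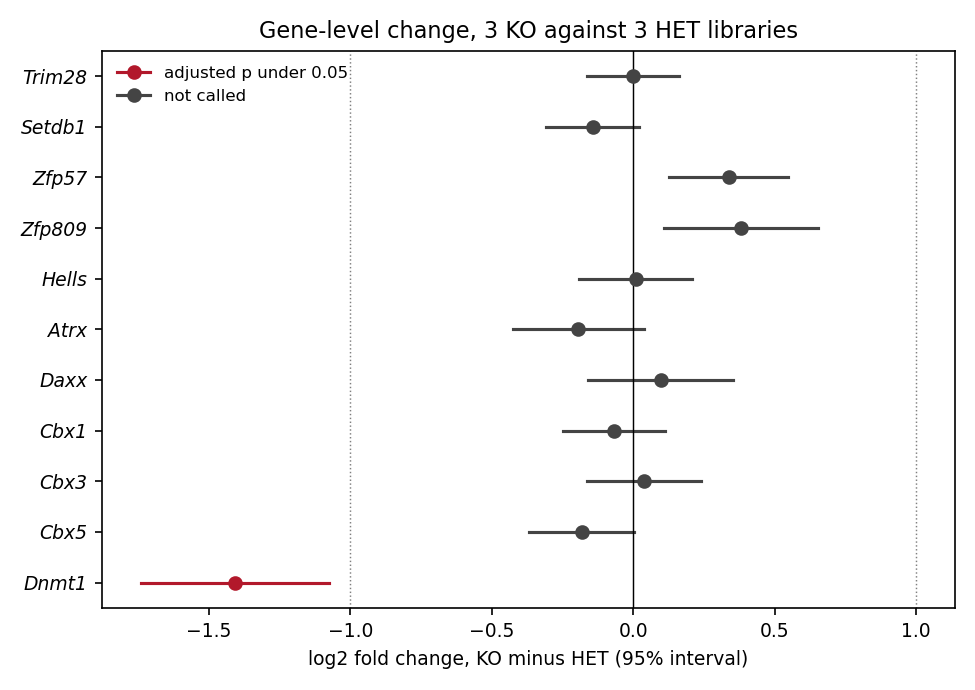
Log2 fold change of each repressor and of Dnmt1, KO minus HET, as a point with its 95% interval (horizontal axis, with dotted lines at a 2-fold change either way). Dnmt1 is the only gene drawn that was called, at -1.41, and the points of the 10 repressors lie between -0.19 and 0.38.

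The levels of the 10 genes were set against each other in TPM, which is scaled by transcript length. Cbx3 was the highest, at 739 ± 26 TPM in KO and 789 ± 125 TPM in HET libraries (SD, n = 3 each here and in the rest of this paragraph), and no library of any of the other 9 genes reached it. Atrx followed at 248 ± 20 TPM in KO and 315 ± 49 TPM in HET libraries. Trim28 was at 193 ± 9.6 TPM in KO and 224 ± 15 TPM in HET libraries, and Cbx1 at 160 ± 10.03 TPM in KO and 181 ± 18 TPM in HET libraries. The ranges of Atrx and Trim28 overlapped over the 6 libraries, as did those of Trim28 and Cbx1, but within each library Atrx was above Trim28 and Trim28 above Cbx1, in 6 of 6. Cbx5 was lower, at 94.0 ± 2.9 TPM in KO and 108 ± 5.0 TPM in HET libraries. The other 5 genes were at or under 36.8 TPM in every library: Daxx averaged 34.6 ± 2.0 TPM in KO and 34.3 ± 2.2 TPM in HET libraries, and Setdb1 averaged 19.9 ± 0.8 TPM in KO and 25.2 ± 3.1 TPM in HET libraries. Zfp57 averaged 26.1 ± 2.5 TPM in KO and 22.4 ± 2.2 TPM in HET libraries, and Hells averaged 21.2 ± 1.5 TPM in KO and 22.1 ± 2.0 TPM in HET libraries. The ranges of Setdb1, Zfp57 and Hells overlapped from each to the next, and Zfp57 stood above Setdb1 in all 3 KO libraries and below it in all 3 HET libraries. Zfp57 was above Hells in 5 of 6 libraries. Zfp809 was the lowest, at 15.02 ± 1.5 TPM in KO and 12.6 ± 1.5 TPM in HET libraries. The steps at which no library overlapped were from Cbx3 to Atrx, Cbx1 to Cbx5, Cbx5 to Daxx, Daxx to Setdb1 and Hells to Zfp809. The KO and HET values in TPM did not overlap for Atrx, Trim28, Cbx1, Cbx5 and Setdb1, with lower KO values in each. They overlapped for the other genes, Zfp57 and Zfp809 among them. The lowest KO value of Zfp57 was 23.9 TPM, against a highest HET value of 24.2 TPM, and for Zfp809 these were 13.7 and 14.2 TPM. Since TPM shares 1 total, a shift of the whole scale was present here: the median over all genes on log2(TPM + 1) was -0.13 in KO relative to HET libraries, and that of the 10 genes -0.13. Relative to that median of all genes Zfp57 was at 0.34 and Zfp809 at 0.37. With no filter on TPM they were at 0.25 and 0.28 relative to the median there. The share of all genes without overlap in TPM was not counted, so the 5 genes with lower KO values cannot be set against it.

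**Figure D4:**
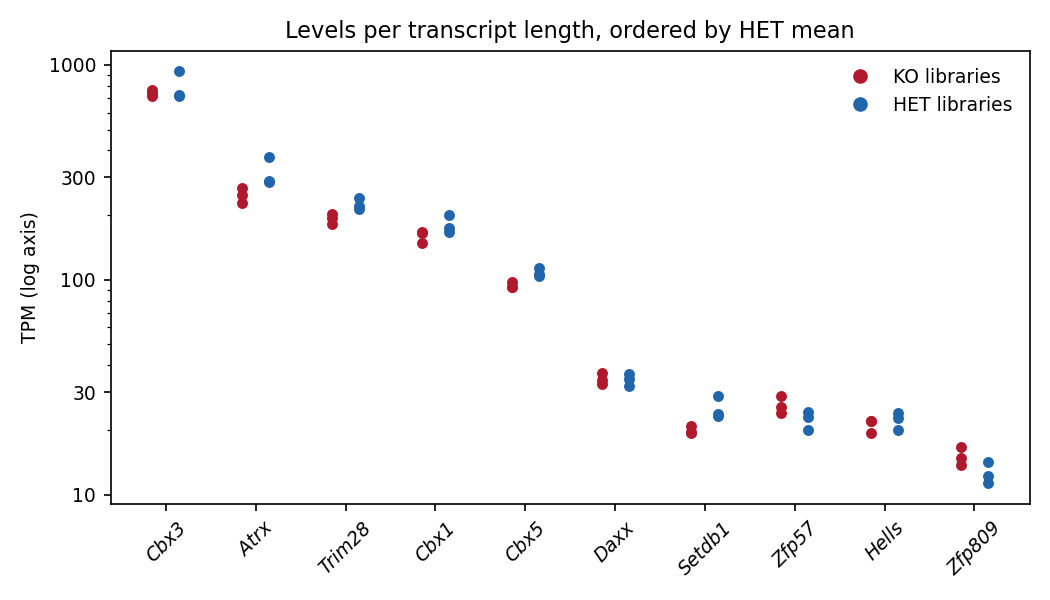
TPM of the 10 repressors (vertical axis, logarithmic) in each KO library (red, left) and HET library (blue, right), ordered by the HET mean. Cbx3 lies at or above 713 TPM and Zfp809 at or below 16.7 TPM in every library, and the step between Cbx5 and Daxx separates 5 genes at or above 92.2 TPM from 5 genes at or below 36.8 TPM.

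The other genes of the same pathways were taken from lists set by their known roles, chosen with earlier results of these data known. Among 20 tested partners of TRIM28 and SETDB1, 2 rose and 0 fell, with a list median of -0.0043 on the log2 scale. Morc2a, an ATPase gene whose product the HUSH silencing complex recruits, had 44.95, 42.2 and 41.1 CPM in KO replicates 1, 2 and 3, against 29.8, 28.2 and 27.0 CPM in HET replicates 1, 2 and 3, and rose by 0.59 ± 0.09 (SE; edgeR adjusted p = 0.00259). Atf7ip, whose product binds and stabilises SETDB1, had 108.3, 113.3 and 121.9 CPM in KO replicates 1, 2 and 3, against 97.8, 86.4 and 81.6 CPM in HET replicates 1, 2 and 3, and rose by 0.37 ± 0.09 (SE; edgeR adjusted p = 0.0381). In both genes every KO library was above every HET library. The Morc2a call was lost with transcript-length offsets, where the log2 fold change was 0.33 (edgeR adjusted p = 0.157), and on log2(TPM + 1), where the limma difference was 0.19 (adjusted p = 0.401). The Atf7ip call was lost in 10 of 19 alternative analyses, among them those without HET replicate 2, HET replicate 3, KO replicate 2 or KO replicate 3, with edgeR adjusted p-values of 0.102 to 0.133 there.

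Among 20 histone chaperones and proteins of pericentric heterochromatin, 2 rose and 0 fell, with a list median of 0.0021. H3f3b, a gene for the histone variant H3.3 that ATRX and DAXX deposit, had 2668, 2899 and 2552 CPM in KO replicates 1, 2 and 3, against 2187, 2029 and 1832 CPM in HET replicates 1, 2 and 3, and rose by 0.42 ± 0.10 (SE; edgeR adjusted p = 0.0246). Cdca7l, a relative of the HELLS partner Cdca7, had 31.1, 32.1 and 25.03 CPM in KO replicates 1, 2 and 3, against 21.5, 22.6 and 20.1 CPM in HET replicates 1, 2 and 3, and rose by 0.46 ± 0.12 (SE; edgeR adjusted p = 0.0478). The groups did not overlap for either gene, and the calls were lost in 8 of 19 alternatives for H3f3b and in 14 of 19 for Cdca7l. Leaving out HET replicate 2, HET replicate 3 or KO replicate 2 gave H3f3b log2 fold changes of 0.43, 0.36 and 0.38 (edgeR adjusted p = 0.086 to 0.116), and with any 1 library left out other than KO replicate 3 Cdca7l was at 0.40 to 0.50 (edgeR adjusted p = 0.092 to 0.173).

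Of 14 lysine 9 methyltransferases and demethylases 0 were called, with a median of -0.06. The smallest p belonged to the demethylase gene Kdm4d, at 0.42, 0.87 and 0.53 CPM in KO replicates 1, 2 and 3, against 0.23, 0.26 and 0.24 CPM in HET replicates 1, 2 and 3 (edgeR adjusted p = 0.126). Of 8 tested chromodomain readers other than HP1, 0 were called, with a median of -0.11. Cdyl2 came closest, at 14.001, 13.3 and 12.5 CPM in KO replicates 1, 2 and 3, against 19.5, 18.1 and 15.7 CPM in HET replicates 1, 2 and 3 (log2 fold change -0.42, edgeR adjusted p = 0.0813), and passed the threshold in 2 of 19 alternatives, DESeq2 at -0.41 (adjusted p = 0.0378) and edgeR with library totals at -0.58 (adjusted p = 0.0213). The groups of Kdm4d and of Cdyl2 did not overlap.

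Genes that act on retroelements after transcription, and genes derived from retroelements, were set beside the repressors. Of 11 restriction genes 1 rose and 0 fell, with a median of 0.16. That gene, Tex19.1, is a germline gene needed to restrain retrotransposons in the mouse testis. It had 45.01, 56.3 and 43.0 CPM in KO replicates 1, 2 and 3, against 0.097, 0.17 and 0.11 CPM in HET replicates 1, 2 and 3, and rose by 8.52 ± 0.22 (SE; edgeR adjusted p = 3.46e-09). The change of Tex19.1 was far outside that of any of the 10 repressors, for which the intervals allow at most 1.57-fold. Of 11 tested retroelement-derived genes 1 rose and 0 fell, with a median of -0.09. The gene Arc, known from neurons and derived from a retroelement, had 9.06, 16.0 and 9.57 CPM in KO replicates 1, 2 and 3, against 4.90, 4.53 and 7.35 CPM in HET replicates 1, 2 and 3, and rose by 1.05 ± 0.27 (SE; edgeR adjusted p = 0.0488), a call lost in 10 of 19 alternatives. Without HET replicate 1, HET replicate 2, KO replicate 2 or KO replicate 3, Arc was at 0.96, 0.91, 0.75 and 1.16 (edgeR adjusted p = 0.0518 to 0.182).

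Zfp809 is 1 of 160 genes found to code for a KRAB box followed by at least 3 zinc fingers, and 142 of these were tested. Zfp57 was not among them, since its KRAB box did not match the pattern searched. In this family 3 genes rose and 3 fell, 2.11% each way, beside 4.92% and 1.92% over all genes. The median log2 fold change was -0.04, with 60 genes above 0 and 82 below, and the quartiles were -0.21 and 0.17, beside -0.19 and 0.23 over all genes. Zfp110 was at 66.0, 81.3 and 66.5 CPM in KO replicates 1, 2 and 3, against 39.6, 46.9 and 43.7 CPM in HET replicates 1, 2 and 3, and rose by 0.72 ± 0.11 (SE; edgeR adjusted p = 0.00254). Zfp7 rose by 0.58 ± 0.13 (SE; edgeR adjusted p = 0.0224) and Zfp69 by 1.06 ± 0.25 (SE; edgeR adjusted p = 0.0299). Zim1, an imprinted gene of mouse chromosome 7, was at 8.29, 4.30 and 4.34 CPM in KO replicates 1, 2 and 3, against 14.3, 12.4 and 12.8 CPM in HET replicates 1, 2 and 3, and fell by 1.22 ± 0.25 on the log2 scale (SE; edgeR adjusted p = 0.0183). Zfp689 fell by 0.61 ± 0.13 (SE; edgeR adjusted p = 0.0166) and Zfp30 by 0.41 ± 0.10 (SE; edgeR adjusted p = 0.0407). The groups did not overlap for any of these 6 genes. With 1 library left out, the Zfp110 call held throughout at 0.62 to 0.78 on the log2 scale (its call was lost in 1 of 19 alternatives, limma on log2(TPM + 1) without the TPM filter, at 0.35 with an adjusted p of 0.0665), and each of the other 5 calls was lost at least once. Zfp7 and Zim1 lost theirs without any 1 of HET replicates 1, 2 and 3 or KO replicate 2, at 0.48 to 0.62 for Zfp7 and -1.26 to -1.05 for Zim1 (edgeR adjusted p = 0.0511 to 0.106). Zfp69 lost its call without any library other than KO replicate 1, at 0.95 to 1.19, Zfp689 without HET replicate 2, KO replicate 1 or KO replicate 2, at -0.60 to -0.51, and Zfp30 without any of the 6, at -0.47 to -0.36 (edgeR adjusted p = 0.0528 to 0.148 over these).

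**Figure D5:**
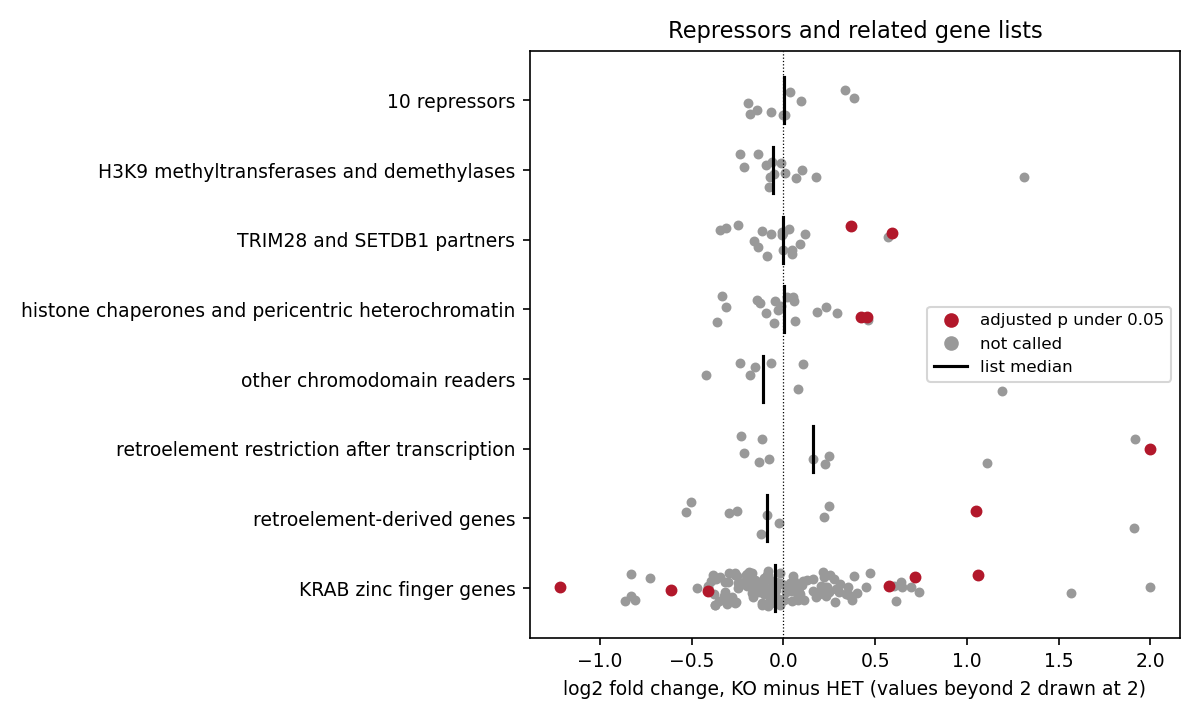
Log2 fold change, KO minus HET (horizontal axis, values beyond 2 drawn at 2), of every tested gene in the 10 repressors and in the related lists, with genes called by edgeR in red and the median of each list as a black bar. The repressors lie between -0.19 and 0.38 with 0 called, and the rightmost red point of the restriction genes is Tex19.1 at 8.52.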

How the data were processed

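The authors deposited 1 table per library with 3 values for every transcript, per the file headers: an estimated count, which can be fractional, an abundance in TPM and an effective length in bases. The submitters' processing notes name kallisto and mm10. Not given in the sources used here were its version, the index's annotation, trimming and strandedness. Of 96626 transcripts in each table, 74519 were paired with 26567 genes through GENCODE vM1 on NCBIM37, whose coordinates are given for genes, and they held 92.4% to 92.8% of the counts. Promoter sequences and their coordinates are RefSeq's on GRCm38.p6, and each was found once in NCBIM37.

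Estimated counts were summed per gene, rounded and tested in R 4.3.3 with edgeR 4.0.16 (quasi-likelihood test, filterByExpr, TMM normalisation, robust dispersions; limma was 3.58.1), KO against HET with no covariate, 3 libraries each. P-values were adjusted by Benjamini-Hochberg over the 16989 genes kept and called at 0.05; fold changes are log2, KO minus HET. Transcripts were tested the same way over 50137. The biological coefficient of variation of genes was 0.21. Pairs of libraries within a group differed by more than sampling noise (chi-square per degree of freedom at least 13.6). The scripts were tested on simulated data whose spread between libraries was set below that of these data. That test therefore does not measure how well changes are detected here.

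The 10 genes and the related lists were chosen with earlier results of these data known. Named beyond the 10 are Dnmt1, in each list every called gene or, where none was called, the gene with the smallest p, and up to 4 called KRAB zinc finger genes in each direction. KRAB genes were found by a pattern search of translated coding sequences of the annotation, an alternative source chosen after the data were seen. Alternatives were DESeq2 1.42.0, its size factors in edgeR, library totals, other filters, limma voom, length offsets, limma on log2 TPM, sex as a covariate, non-robust dispersions, a replicate block and each library left out; those for genes beyond the 10 were added after the data were seen. Shared 31-mers were counted between transcripts of the annotation.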

Additional observations from a re-analysis of the deposited data

How the results depend on the processing

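Over 19 alternatives the 190 log2 fold changes of the 10 genes kept their direction and side of the threshold in 164 cases, passed it in 5 and changed sign in 21. Genes called higher numbered 836, against 1346 with DESeq2, 520 with at least 10 counts in every library, 454 on log2(TPM + 0.1), 457 on log2(TPM + 1), 548 on log2(TPM + 1) without the TPM filter, and 526 to 916 with 1 library left out, lowest without KO replicate 2. Genes called lower numbered 327, against 586 with DESeq2, 1883 with library totals, 756 on log2(TPM + 0.1), 761 on log2(TPM + 1), 162 with sex as a covariate and 116 to 272 with 1 library left out (116 without KO replicate 2, 170 without HET replicate 2 and 171 without HET replicate 3). Of the 10 genes, those called higher numbered 2 with DESeq2 and 0 to 1 with 1 library left out, the 1 being Zfp57 without HET replicate 1. Those called lower numbered 2 with library totals, Setdb1 at -0.31 (edgeR adjusted p = 0.0295) and Cbx5 at -0.35 (edgeR adjusted p = 0.0207). That scaling put the median of all genes at -0.17 and that of the 10 at -0.16; relative to the shifted median Setdb1 was at -0.14 and Cbx5 at -0.18. With no filter on counts 1 transcript of the 10 genes was called, Atrx-013.

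All sign changes were in 4 genes with a fold change near 0. Trim28 was at 0.0083 with DESeq2, 0.0063 with at least 10 counts, 0.0078 with DESeq2 size factors, and -0.0359 to 0.0398 with 1 library left out. Its sign was kept at -0.16 with library totals, -0.2165 on log2(TPM + 0.1) and -0.2156 on log2(TPM + 1) with or without the filter. Relative to the median of all genes Trim28 was at 0.0017 with library totals, and at -0.0747 and -0.0892 on the filtered TPM scales. Hells was at -0.15 with library totals, -0.0612 on log2(TPM + 0.1), -0.0588 on log2(TPM + 1) with or without the filter, and -0.0607 to 0.0593 with 1 library left out. Daxx was at -0.0668 with library totals and -0.0194 to 0.17 with 1 library left out. Cbx3 was at -0.13 with library totals, -0.0840 on log2(TPM + 0.1), -0.0839 on log2(TPM + 1) with or without the filter, and -0.0099 to 0.13 with 1 library left out. Part of these changes follows a shift of all genes under the scaling, whose median was -0.17 with library totals, -0.14 on log2(TPM + 0.1), -0.13 on log2(TPM + 1) and -0.0403 on log2(TPM + 1) without the filter. Relative to that median, with library totals Hells was at 0.0126, Daxx at 0.0989 and Cbx3 at 0.0393, the sign of the edgeR values. On both filtered TPM scales Hells was at 0.0676 to 0.0807 and Cbx3 at 0.0425 to 0.0578, again with that sign. Without the TPM filter Hells was at -0.0185 and Cbx3 at -0.0436. Relative to the median there of only the genes kept in the main edgeR fit, -0.0931, Hells was at 0.0343 and Cbx3 at 0.0092. The cause of the other sign changes was not tested.

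The labels do not say what the replicate numbers mark, so the numbers were not taken as pairs. Same-numbered libraries did not deviate together (r = -0.058, -0.048 and -0.031). Each such pair joined a male and a female library, so these correlations cannot decide whether the numbers mark pairs. With the replicate number as a block, genes called were 707 higher and 265 lower, 0 of the 10 were called in either direction, and Zfp57 was at 0.34 (edgeR adjusted p = 0.0597) and Zfp809 at 0.38 (edgeR adjusted p = 0.125); of the genes named outside the 10, the calls of Atf7ip, Arc and Zfp30 were lost, at edgeR adjusted p-values of 0.0763, 0.102 and 0.0775. With 3 libraries a group, the intervals of the 10 genes span differences of up to 1.57-fold, so smaller ones were not detectable in every gene. Between 7.18% and 7.60% of counts lay on transcripts not paired with a gene, and the pairing used an annotation on NCBIM37.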
